A study of Mus musculus with 12 samples.

Results

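The loss of Cbx2 was examined in XY mouse gonads at E11.5, when the gonad turns towards testis or ovary. The comparison used 6 of the study's 12 arrays, 3 from Cbx2 knockout (KO) XY gonads and 3 from wild-type (WT) XY gonads, and every gene that the array annotation gives to a probe set of its own, 18193 genes in all. The other 6 arrays, 3 from KO XX and 3 from WT XX gonads, entered the same statistical model and are quoted where the effect in XY is set against that in XX. All embryos came from crosses of mice heterozygous for the KO allele, carried no further allele or treatment, and were staged by counting tail somites. The sources used here do not give which part of Cbx2 the allele removes. Gonadal cells were cut by laser from 30 μm frozen sections, guided by tissue form and by staining for GATA4, and each array carried RNA pooled from 2 or 3 individuals. Groups follow the sample titles and genotype labels. The source description of the 6 WT arrays names KO XX gonads instead, so WT stands for arrays labelled so in their titles.

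Cbx2 is a chromobox subunit of Polycomb repressive complex 1 (PRC1), which binds histone H3 trimethylated at lysine 27 and helps to keep developmental genes silent. The early gonad is built from thickening coelomic epithelium under the control of transcription factors such as WT1, LHX9, EMX2, GATA4 and NR5A1. In XY gonads SRY, itself dependent on GADD45G, MAP3K4 and insulin receptor signalling, then switches on Sox9 in the supporting cells, which become Sertoli cells. In XX gonads WNT4, RSPO1 and FOXL2 lead the same lineage to pregranulosa cells.

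Values are log2 RMA intensities, so a difference of 1 is a doubling. Group values are means ± SD and differences are means ± SE, with n = 3 pools a group. Within KO XY the arrays correlated at 0.994 to 0.997 over all genes and within WT XY at 0.995 to 0.997, against 0.977 to 0.985 between the groups. A gene was called at an adjusted p under 0.05, and 2421 genes were (13.3% of 18193), of which 1193 were higher in KO XY (6.56%) and 1228 lower (6.75%). The arrays of the groups did not overlap for 6719 genes (36.9%). The median difference over all genes was 0.01. Large changes were mostly losses, since 86 of the genes that fell did so at least 4-fold and 27 at least 8-fold, against 27 and 2 of those that rose. Genes that fell had a median WT level of 8.41 and genes that rose one of 7.93.

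RNA control readings and the levels of some cell type markers differed between these groups too. The control probe sets for Gapdh read more strongly at the 3' than the 5' end by 4.96, 4.78 and 5.0 in KO XY and by 3.89, 4.57 and 3.92 in WT XY, and those for actin by 4.69, 4.31 and 4.33 against 3.88, 4.16 and 3.66. Neither overlapped between the groups (exact permutation p = 0.1 for each, the smallest that 3 against 3 allows). With the Gapdh difference as a covariate 780 genes were called, 301 higher and 479 lower. Of the 2421 genes called without it, 1679 were not called with it. All of these kept their sign, with a median size of 0.63 without and 0.46 with the covariate and a median SE of 0.15 and 0.21, and in 307 the difference was at least as large with it. Its part in the results was not tested further, and the counts with it are given beside the gene lists.

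Cbx2 itself was not lower in the KO. Its log2 values were 9.43, 9.33 and 9.58 in KO XY and 8.93, 9.04 and 8.81 in WT XY, so every KO XY array lay above every WT XY array (log2 difference 0.52 ± 0.12, adjusted p = 0.00869). The call was lost with the Gapdh covariate (adjusted p = 0.111, difference 0.57) and without WT XY replicate 3 (adjusted p = 0.0507, difference 0.46). A second, dim probe set read 3.98 in KO XY and 3.87 in WT XY and was not called. Since the deleted part is unknown, these probe sets do not check the genotype.

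Among early gonad factors the KO lowered one set of genes and left others near their WT level. Of 18 measured, 6 fell (33.3%) and 4 rose (22.2%), beside 6.75% and 6.56% over all genes. The list median was -0.05 against 0.01 over all genes. The 6 that fell remained called with the Gapdh covariate, while 1 of the 4 that rose did. Nr5a1 encodes steroidogenic factor 1, the nuclear receptor needed for gonad and adrenal formation. Its log2 values were 7.92, 7.68 and 7.92 in KO XY and 10.33, 10.02 and 10.21 in WT XY. The groups lay more than 2 log2 units apart (log2 difference -2.35 ± 0.16, adjusted p = 3.61e-07). A second and dim Nr5a1 probe set, at 4.61 in KO XY and 4.42 in WT XY, did not follow it. Gata4, the zinc finger factor whose protein guided the capture, lay at 7.69, 7.34 and 7.54 in KO XY and 9.11, 8.92 and 9.03 in WT XY (log2 difference -1.49 ± 0.16, adjusted p = 2.29e-05). Its level is therefore not independent of how cells were chosen, and its second probe set, with a difference of -0.21, was not called.

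**Figure D1:**
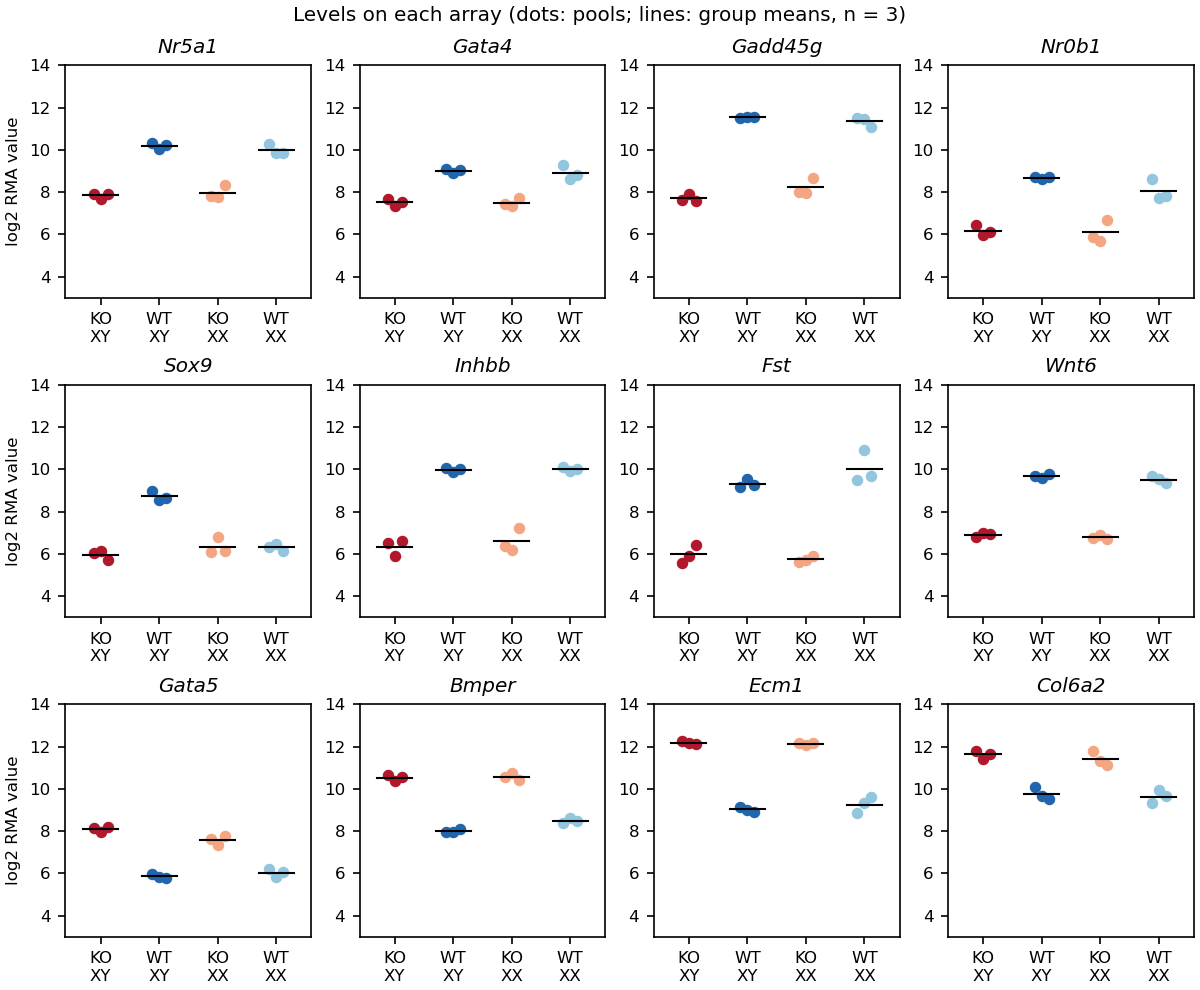
Log2 RMA values of 12 genes on all 12 arrays. Each dot is a pool, lines are group means (n = 3), and every panel has the same axis from 3 to 14. The 3 KO XY arrays lie below the 3 WT XY arrays for the upper 8 genes and above them for the lower 4, and Sox9 is the panel in which KO XX and WT XX do not separate.

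Gadd45g fell furthest of the early factors. It encodes a small stress-response protein that activates MAP3K4, upstream of Sry. Its log2 values were 7.64, 7.9 and 7.57 in KO XY and 11.52, 11.54 and 11.56 in WT XY, a gap of nearly 4 units with tight groups (log2 difference -3.84 ± 0.18, adjusted p = 5.74e-09). Nr0b1, the X-linked gene of the nuclear receptor DAX1, lay at 6.42, 5.97 and 6.13 in KO XY and 8.71, 8.6 and 8.73 in WT XY (log2 difference -2.5 ± 0.25, adjusted p = 1.04e-05). The LIM-homeobox factor Lhx9 fell by 1.21 ± 0.17 (adjusted p = 0.00021), and so did its 3 other probe sets. Numb, an inhibitor of Notch signalling, fell by 0.83 ± 0.13 (adjusted p = 0.000547).

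The other upstream factors moved less or the other way. Wt1 differed by -0.17 ± 0.1 (adjusted p = 0.341), Emx2 by -0.18 ± 0.14 (adjusted p = 0.487) and Map3k4 by 0.19 ± 0.12 (adjusted p = 0.371), and none was called. Zfpm2, which encodes the GATA4 partner FOG2, was at 10.46 ± 0.09 in KO XY and 10.45 ± 0.15 in WT XY. Cited2, Six4, Tcf21 and Podxl were not called either, with differences of 0.29, 0.43, 0.44 and -0.1. Tcf21 passed under 4 of the alternatives, among them the mean of its probe sets (difference 0.58, adjusted p = 0.00214), and Six4 under 2, among them the 6 XY arrays only (adjusted p = 0.0239). The 4 that rose were Osr1 (log2 difference 0.86 ± 0.14, adjusted p = 0.000615), whose product marks the early urogenital mesoderm, the insulin receptor gene Insr (1.0 ± 0.18), Igf1r (0.63 ± 0.14) and Irs1 (0.64 ± 0.12). With the covariate Insr, Igf1r and Irs1 lost their calls (adjusted p = 0.21, 0.361 and 0.203, differences 0.49, 0.43 and 0.45), and Igf1r also with the mean of its probe sets (adjusted p = 0.0543).

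The called genes of the Sertoli and testis list moved in a single direction. Of 26 measured genes 13 fell and none rose, 11 of the 13 with the Gapdh covariate, and the list median was -0.56. Sox9, the transcription factor that commits supporting cells to the Sertoli fate, lay at 6.02, 6.14 and 5.7 in KO XY and 8.96, 8.56 and 8.64 in WT XY. The KO XY arrays were all below the WT XY arrays (log2 difference -2.77 ± 0.18, adjusted p = 2.24e-07), and Sox9's 2 other probe sets differed by -2.21 and -0.62, both called. Cbln4, a secreted cerebellin, had values of 4.92, 4.49 and 4.61 in KO XY and 8.35, 8.57 and 8.68 in WT XY (log2 difference -3.86 ± 0.25, adjusted p = 2.1e-07). Inhbb, the gene of the activin and inhibin beta B subunit, lay at 6.53, 5.89 and 6.59 in KO XY and 10.05, 9.85 and 10.03 in WT XY (log2 difference -3.64 ± 0.23, adjusted p = 1.17e-07). For both Cbln4 and Inhbb the gap between groups was several times the spread within them. The other Inhbb probe set differed by -0.32 and was not called.

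Further members fell by smaller amounts. The transcription factor gene Dmrt1 fell by 2.0 ± 0.28 (adjusted p = 0.000169) and Cyp26b1, whose enzyme degrades retinoic acid, fell by 1.23 ± 0.13 (adjusted p = 2.39e-05). Cst9, Defb19, Aard, Vnn1 and Clu had differences of -3.05, -1.88, -1.8, -1.11 and -1.03. Tesc (-1.49 ± 0.34) lost its call with the covariate (adjusted p = 0.324, difference -1.08). The Hedgehog ligand gene Dhh (-0.79 ± 0.24, adjusted p = 0.0426) lost it with the covariate (adjusted p = 0.806, difference -0.31), with the mean of its probe sets (adjusted p = 0.217) and without KO XX replicate 1 or any single XY array other than WT XY replicate 2 (adjusted p = 0.0505 to 0.207). Fgf9, a growth factor that sustains Sox9, was variable, with values of 8.1, 8.6 and 8.3 in KO XY and 8.82, 7.91 and 7.92 in WT XY that overlapped between the groups (log2 difference 0.12 ± 0.36, adjusted p = 0.89). Several members were near the bottom of the scale in both groups and could not show a fall, among them Sox8 at 3.61 ± 0.11 and 3.63 ± 0.21 and Erbb4 at 3.44 ± 0.19 and 3.46 ± 0.09 in KO XY and WT XY. The anti-Müllerian hormone gene Amh read 6.58 ± 0.17 and 6.65 ± 0.07, Sry 6.0 ± 0.24 and 5.99 ± 0.05, and neither was called. Sry, itself Y-linked, was not among the 10 genes called higher in XY than in XX gonads of WT. This reading therefore cannot show whether Sry changed. Its other probe set was near the bottom of the scale, at 2.94 in KO XY and 3.07 in WT XY.

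Genes that were higher in XY than in XX gonads of WT embryos were lower in KO XY than in WT XY, apart from most Y-linked ones. In WT, 10 genes were called higher in XY than in XX, of which Eif2s3y, Kdm5d, Uba1y and Uty are Y-linked and Sox9, Mmd2, Cnga1, Map3k21, Rnase1 and Hccs are not. All of the latter fell in KO XY, with differences of -2.62 ± 0.29 for Mmd2 and -2.32 ± 0.29 for Map3k21. The cyclic nucleotide channel gene Cnga1 dropped by 2.62 ± 0.22 and Rnase1 dropped by 1.28 ± 0.18, and Hccs, an X-linked gene for mitochondrial cytochrome c haem lyase, decreased by 0.56 ± 0.16 (adjusted p = 0.0294, with the covariate 0.661, difference -0.31). Between KO XY and KO XX none of the 6 was called, with differences of -0.39 ± 0.18 for Sox9, -0.41 ± 0.29 for Mmd2, -0.25 ± 0.22 for Cnga1, -0.06 ± 0.29 for Map3k21, 0.2 ± 0.18 for Rnase1 and 0.61 ± 0.16 for Hccs. In WT the same differences were 2.4 ± 0.18, 1.81 ± 0.29, 1.36 ± 0.22, 1.78 ± 0.29, 1.14 ± 0.18 and 1.3 ± 0.16. The 6 were picked as high in the same WT XY arrays that the KO is compared with, so these values are set side by side without a further test. Among the Y-linked genes Uty, which encodes a JmjC-domain protein, stood out after its values were seen. It lay at 6.99, 7.34 and 7.14 in KO XY and 8.0, 8.39 and 8.36 in WT XY (log2 difference -1.09 ± 0.13, adjusted p = 3.62e-05), whereas Kdm5d, Eif2s3y and Uba1y were not called between KO XY and WT XY (differences -0.28 ± 0.17, 0.25 ± 0.15 and 0.22 ± 0.15).

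The pregranulosa and ovary list also lay mostly below WT in these XY gonads. Of 20 measured genes 10 fell and 3 rose, or 9 and 0 with the covariate, and the median was -0.60. Fst, the gene of the activin antagonist follistatin, read 5.58, 5.9 and 6.44 in KO XY and 9.14, 9.55 and 9.28 in WT XY (log2 difference -3.35 ± 0.29, adjusted p = 2.77e-06). Bmp2, a ligand of the BMP pathway, lay at 6.58, 6.29 and 6.26 in KO XY and 8.77, 8.91 and 8.99 in WT XY (log2 difference -2.51 ± 0.18, adjusted p = 5.42e-07). Neither gene's groups came within 2 log2 units of each other. The small proline-rich protein gene Sprr2d fell (-3.62 ± 0.32), and so did the homeobox gene Msx1 (-2.69 ± 0.2), the transcription factor gene Runx1 (-2.68 ± 0.24) and the tumour suppressor gene Lzts1 (-2.34 ± 0.1), at adjusted p of 3.59e-06, 7.33e-07, 4.07e-06 and 3.69e-09. Lgr5, the receptor of R-spondins, and Gng13 differed by -1.83 and -1.36 and Lef1 by -0.77. Lef1 lost its call with the probe set of largest variance (adjusted p = 0.344). Of the ovary-determining genes none was called at the threshold, Wnt4 differing by -0.17 ± 0.15 (adjusted p = 0.528), Rspo1 by 0.36 ± 0.11 (adjusted p = 0.0537) and Foxl2 by -0.42 ± 0.18 (adjusted p = 0.156). Rspo1 passed under 8 of the alternatives, among them the 6 XY arrays only (adjusted p = 0.0273) and the mean of its probe sets (adjusted p = 0.0351), and Foxl2 under 3, among them the 6 XY arrays only (adjusted p = 0.0196). Of the 3 that rose Nr2f1 (1.22 ± 0.18), an orphan nuclear receptor, and Fzd1 (0.79 ± 0.13) had the smallest p, and with the covariate their differences were 0.7 and 0.65 (adjusted p = 0.0531 and 0.084).

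In steroid, aldehyde and retinoid metabolism a small number of very large losses stood beside small changes. Akr1cl, an aldo-keto reductase gene, had the largest fall of all genes ranked, with values of 5.92, 5.97 and 5.97 in KO XY and 11.59, 11.39 and 11.23 in WT XY (log2 difference -5.45 ± 0.24, adjusted p = 4.16e-09). Its KO XY arrays lay within 0.05 of each other. Cyp11a1, the side-chain cleavage enzyme that starts steroid synthesis, lay at 4.69, 4.95 and 5.24 in KO XY and 7.03, 7.44 and 7.31 in WT XY (log2 difference -2.3 ± 0.23, adjusted p = 1.04e-05), and Hsd3b1 dropped by 0.49 ± 0.13, a call lost with the covariate (adjusted p = 0.356, difference -0.43) and without KO XY replicate 1 or 2 or WT XY replicate 1 or 3 (adjusted p = 0.0684 to 0.0934). Mc2r, the adrenocorticotropin receptor, was the member of the steroidogenic list that rose (1.22 ± 0.27), also not with the covariate (adjusted p = 0.45, difference 0.69). Of the 15 measured genes of that list 3 fell (20%) and 1 rose (6.67%), or 2 and 0 with the covariate. Over all genes 6.75% fell and 6.56% rose, so the rise is at the general share. Star, which carries cholesterol into mitochondria, was not called (-0.19 ± 0.1) but differed by -0.83 with its most variable probe set (adjusted p = 0.00351).

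Of 30 measured aldo-keto reductases and aldehyde dehydrogenases 8 fell and 2 rose, or 7 and 0 with the covariate, and 1 rose when KO XY replicate 3 or WT XY replicate 1 or 3 was left out. Aldh1a1 and Aldh1a7 are close paralogues, so their probes may share signal, and they differed by -4.9 ± 0.29 and -3.88 ± 0.37. Aldh1b1 (-1.49 ± 0.17), Aldh3a2 (-1.21 ± 0.15) and Aldh3b1 (-1.13 ± 0.14) fell by 2-fold or more. Aldh1a2, the retinaldehyde dehydrogenase of the mesonephros and coelomic epithelium, instead rose by 0.7 ± 0.17 (adjusted p = 0.0142), not called with the covariate (adjusted p = 0.455, difference 0.48). The retinoic acid receptor gene Rarb rose by 1.13 ± 0.16 (adjusted p = 0.000265). In the 19 retinoic acid genes measured 5 rose and 3 fell, or 2 and 3 with the covariate, and 3 rose without KO XY replicate 3, WT XY replicate 1 or WT XY replicate 3.

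Promoter sequence was searched for short elements of 3 factors that fell and for the E-box. RefSeq promoter windows of GRCm38.p6 were at hand for 917 of the 1193 genes that rose, 959 of the 1228 that fell and 14367 of the 18193 tested, and the 250 bases before each start were read on both strands. The NR5A1 element CAAGGTCA stood before 0.436% of the genes that rose, 0.73% of those that fell and 1.2% of all. For the GATA element AGATAA these shares were 5.89%, 7.82% and 7.45%, for the SOX element AACAAT 4.47%, 4.8% and 6.53%, and for the palindromic E-box CACGTG 6.54%, 8.24% and 7.59%. Median GC content was 60.8% in both called sets and 57.6% over all. Of 22 genes that fell in the early gonad, Sertoli and steroidogenic lists, 14 had a window and 0 of these held the NR5A1 element. The 3 windows of that set with a GATA or SOX element are shown because their genes include the largest fall, and they were chosen after the values were seen. Each runs 5′ to 3′ along the gene's own strand up to the base before the start, with the element in capitals.
Akr1cl (chr1:65032760-65033009, minus strand, GATA element): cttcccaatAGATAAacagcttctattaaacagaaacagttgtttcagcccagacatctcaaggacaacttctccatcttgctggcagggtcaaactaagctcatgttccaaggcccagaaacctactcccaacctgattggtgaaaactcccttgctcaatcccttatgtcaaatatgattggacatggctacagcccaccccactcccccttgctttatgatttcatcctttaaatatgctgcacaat
Cbln4 (chr2:172043467-172043716, minus strand, SOX element on the other strand): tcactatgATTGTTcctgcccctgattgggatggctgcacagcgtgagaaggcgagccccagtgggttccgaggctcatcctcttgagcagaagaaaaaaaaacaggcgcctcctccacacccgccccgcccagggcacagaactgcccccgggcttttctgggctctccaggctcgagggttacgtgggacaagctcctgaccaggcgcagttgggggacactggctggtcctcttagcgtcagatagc
Hsd3b1 (chr3:98859795-98860044, minus strand, GATA element on the other strand): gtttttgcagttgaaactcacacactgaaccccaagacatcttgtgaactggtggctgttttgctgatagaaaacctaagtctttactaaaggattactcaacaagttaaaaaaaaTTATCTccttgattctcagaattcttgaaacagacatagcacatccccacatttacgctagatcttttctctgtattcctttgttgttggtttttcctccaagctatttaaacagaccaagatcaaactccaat
The elements begin 241 bases before the start in Akr1cl, 242 in Cbln4 and 134 in Hsd3b1. A match of letters is a description of the window and not evidence of binding.

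Secreted signals and their inhibitors changed on both sides of several pathways. In the activin and TGF-beta list of 27 measured genes, 6 rose and 5 fell, or 3 and 3 with the covariate, and 3 fell without KO XY replicate 2 or 3. Inha, the inhibin alpha subunit, fell by 2.47 ± 0.2 (adjusted p = 1.5e-06), in the same direction as Inhbb and the activin antagonist gene Fst above. Tgfb3, a TGF-beta ligand, rose by 1.42 ± 0.15 (adjusted p = 2.21e-05), and Ltbp1, which stores latent TGF-beta in the matrix, by 0.97 ± 0.13 (adjusted p = 9.26e-05). Fstl1, a follistatin-like protein, rose by 0.81 ± 0.13 (adjusted p = 0.000617).

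BMP genes rose more often than they fell. Of 27 measured, 10 rose and 4 fell, or 6 and 2 with the covariate, and the median was 0.29. Without KO XY replicate 1, 2 fell. Bmper, a secreted BMP-binding protein, lay at 10.67, 10.35 and 10.57 in KO XY and 7.96, 7.94 and 8.09 in WT XY (log2 difference 2.53 ± 0.12, adjusted p = 1.11e-08). Bmp4 rose by 1.36 ± 0.15 (adjusted p = 2.97e-05), the reverse of the fall of Bmp2. Bmp5 rose by 2.24 ± 0.39, which was not called with the covariate (adjusted p = 0.175, difference 1.03). Of the inhibitors of DNA binding, which are common BMP targets, Id2 rose by 1.04 ± 0.13, Id3 by 0.88 ± 0.11 and Id4 by 2.4 ± 0.29 (adjusted p = 5.25e-05, 5.33e-05 and 5.64e-05), whereas the target Msx1 fell, as given above.

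In the Wnt list of 57 measured genes, 15 rose and 4 fell, or 7 and 3 with the covariate. The ligand gene Wnt6 lay at 6.79, 6.97 and 6.94 in KO XY and 9.69, 9.6 and 9.78 in WT XY (log2 difference -2.79 ± 0.11, adjusted p = 3.69e-09), with a spread of about 0.1 within each group. The receptors Fzd4 (1.58 ± 0.2), Fzd7 (1.15 ± 0.12) and the orphan receptor Ror1 (1.29 ± 0.11) rose, as did the secreted inhibitor Sfrp1 (1.23 ± 0.1), at adjusted p of 6.69e-05, 1.74e-05, 2.09e-06 and 1.64e-06. Axin2, a general readout of canonical Wnt signalling, was at 8.94 ± 0.18 in KO XY and 8.99 ± 0.06 in WT XY and was not called.

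Other receptor pathways gave shorter lists of calls. Of 17 EGF family genes 2 fell and 2 rose, or 2 and 0 with the covariate. Either share was 11.8%, beside 6.75% lower and 6.56% higher over all genes. The rises numbered 4 on leaving out KO XX replicate 2 and 1 on leaving out the third WT XY array or KO XY replicate 2. The ligand Ereg fell by 4.43 ± 0.23 and the ligand Tgfa fell by 1.55 ± 0.17 (adjusted p = 1.54e-08 and 2.5e-05), whereas the receptor Egfr rose by 0.86 ± 0.18, a call lost with the covariate (adjusted p = 0.155, difference 0.76) and with the mean of its probe sets (adjusted p = 0.675). The other Tgfa probe sets differed by 0.12 and 0.02 and were not called. Of 20 insulin and IGF genes 6 rose and 2 fell, or 2 and 1 with the covariate, and 1 fell when KO XY replicate 1 or WT XY replicate 2 was left out. Igfbp5 rose by 1.22 ± 0.13 and Pappa, a protease that cleaves IGF-binding proteins, by 1.29 ± 0.16, while Igfbp2 fell by 1.76 ± 0.18 (adjusted p = 1.7e-05, 7.75e-05 and 1.53e-05). Of 28 FGF genes 4 rose (14.3%) and none fell, beside 6.56% and 6.75% over all genes. Of the 4 that rose Fgfr3 (0.89 ± 0.11) remained called with the covariate. Without WT XX replicate 1, 8 rose.

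Of 25 Notch genes 6 rose (24%) and 5 fell (20%), or 1 and 3 with the covariate, beside 6.56% and 6.75% over all genes. The rises numbered 3 without any single XY array other than KO XY replicate 2. Notch3, a receptor of mural cells, rose by 0.9 ± 0.12 (adjusted p = 0.000159), and the target gene Nrarp fell by 0.81 ± 0.11 (adjusted p = 0.00021). Jag1, a Notch ligand, rose by 1.42 ± 0.21 but missed the threshold with the covariate (adjusted p = 0.0511, difference 1.05). Of 19 Hedgehog and PDGF genes 6 rose and 2 fell, or 1 and 1 with the covariate. There 3 rose without KO XY replicate 3, and 1 fell without any single XY array other than WT XY replicate 2. The ligand genes moved apart, Pdgfd rising by 1.21 ± 0.15 and Pdgfb, made by endothelium, falling (log2 difference -0.81 ± 0.17, adjusted p = 0.00401).

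**Figure D2:**
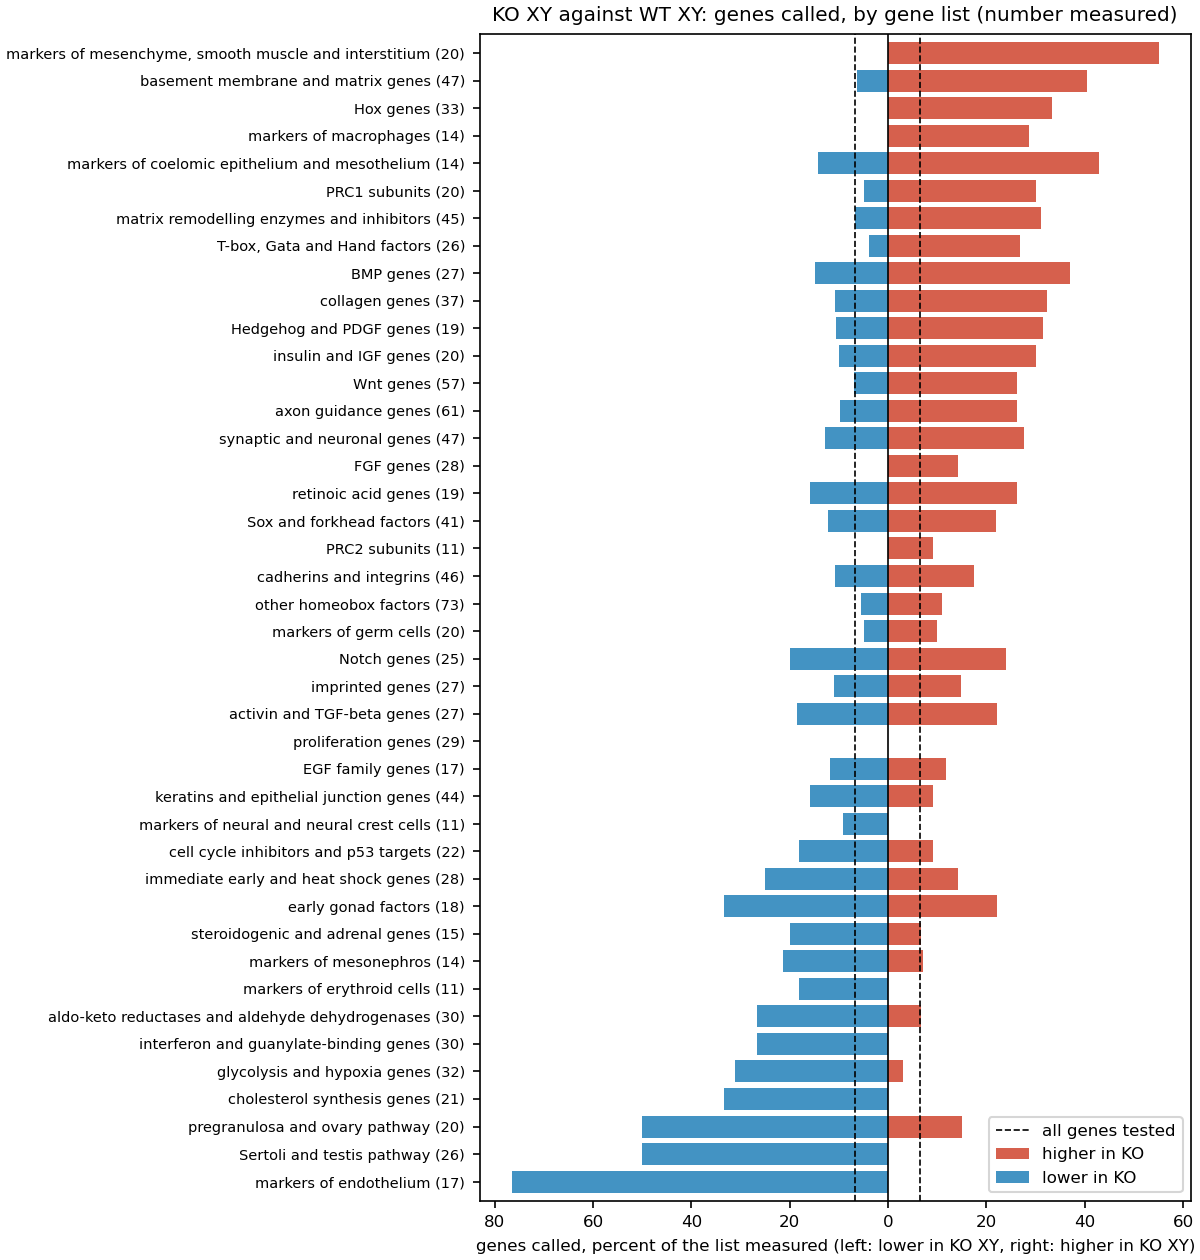
Share of each gene list called lower (blue, left) or higher (red, right) in KO XY than in WT XY, in percent of the genes measured, with the number measured in brackets. Dashed lines mark the shares over all genes, 6.75% lower and 6.56% higher. Endothelial markers, the Sertoli list and the pregranulosa list reach furthest to the left and mesenchymal markers furthest to the right, and no proliferation gene was called.

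Among transcription factors of body patterning rises outnumbered falls. Of 33 Hox genes measured 11 rose and none fell, with a median of 0.23, and 3 remained called with the covariate. The central HoxC gene Hoxc8 lay at 11.27, 11.18 and 11.39 in KO XY and 9.71, 9.58 and 9.88 in WT XY (log2 difference 1.56 ± 0.21, adjusted p = 0.000154). Hoxc9 rose by 0.82 ± 0.13 and Hoxc5 by 1.06 ± 0.18 (adjusted p = 0.000605 and 0.000821). Hoxa9 had values of 12.91, 13.01 and 12.87 in KO XY and 11.07, 11.45 and 11.15 in WT XY, a difference of 1.71 ± 0.31 that was not called with the covariate (adjusted p = 0.243, difference 0.72). Their TALE-class cofactors rose as well, Meis1 by 0.89 ± 0.12, Meis2 by 1.3 ± 0.16 and Pbx3 by 1.26 ± 0.16 (adjusted p = 0.000169, 7.75e-05 and 0.000104). Among the 73 other homeobox factors measured, 8 rose and 4 fell, shares of 11% and 5.48% that lie nearer to the 6.56% and 6.75% over all genes. With the covariate 4 rose and 2 fell, and 2 fell when KO XY replicate 2 or 3 or WT XY replicate 1 or 3 was left out.

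Of 26 T-box, Gata and Hand factors 7 rose and 1, Gata4, fell, and with the covariate 6 rose and 1 fell. The falls numbered 2 when KO XX replicate 2 or 3, KO XY replicate 3 or WT XX replicate 1 or 3 was left out. Gata5, a relative of Gata4, lay at 8.15, 7.94 and 8.18 in KO XY and 5.95, 5.82 and 5.8 in WT XY. All KO XY arrays were above 7.9 and all WT XY arrays below 6 (log2 difference 2.23 ± 0.13, adjusted p = 6.05e-08), so these related genes moved in opposite directions. Tbx18, a T-box factor of the urogenital mesenchyme and coelomic lining, read 9.33, 8.84 and 8.69 in KO XY and 7.38, 7.09 and 7.42 in WT XY (log2 difference 1.65 ± 0.19, adjusted p = 3.52e-05). Tbx3 rose by 1.31 ± 0.17, Twist1 by 1.25 ± 0.14 and Twist2 by 1.19 ± 0.18, the latter pair being factors of mesenchyme (adjusted p = 9.72e-05, 3.34e-05 and 0.000304). Of 41 Sox and forkhead factors 9 rose and 5 fell, or 3 and 3 with the covariate, and 5 rose without KO XX replicate 3 or any single XY array other than KO XY replicate 2. Besides Sox9, the endothelial genes Sox17 (-1.25 ± 0.22) and Sox18 (-1.03 ± 0.18) and the Sox9 relative Sox5 (-0.95 ± 0.16) fell. Sox18 lost its call with the covariate (adjusted p = 0.078, difference -0.9). Foxp1 (log2 difference 1.61 ± 0.16, adjusted p = 1.19e-05) and Foxc1 (log2 difference 1.23 ± 0.14, adjusted p = 3.49e-05) rose.

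Among genes of PRC1 subunits rises outnumbered falls. Of 20 PRC1 subunit genes measured 6 rose, Cbx2 included, and 1 fell, shares of 30% and 5% beside the 6.56% and 6.75% over all genes. The list median was 0.17, or 0.04 with the covariate, with which 1 rose. That was Bmi1, which encodes a ring finger subunit and lay at 11.52 ± 0.11 in KO XY and 10.67 ± 0.06 in WT XY without overlap (log2 difference 0.85 ± 0.14, adjusted p = 0.000589). Its other probe set differed by 1.83 ± 0.13 (adjusted p = 6.8e-07 over all probe sets). Scmh1, the 1 that fell (-0.58 ± 0.13), was not called with the covariate (adjusted p = 0.117, difference -0.6). The number of PRC1 genes called higher was 2 without WT XY replicate 3 and 3 without WT XY replicate 1, KO XY replicate 1 or KO XY replicate 3. Of 11 subunits of the complex that writes the H3K27 mark, PRC2, Jarid2 alone was called (9.09%, near the 6.56% higher over all genes). It rose by 0.44 ± 0.1 (adjusted p = 0.0109). It was not called with the covariate (adjusted p = 0.475, difference 0.28), the probe set of largest variance (adjusted p = 0.221) or without WT XY replicate 3 (adjusted p = 0.06). Without WT XX replicate 1, 2 subunits were called.

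Many genes of the extracellular matrix were higher. Of 47 basement membrane and matrix genes 19 rose (40.4%) and 3 fell, or 8 and 1 with the covariate, with a median of 0.32. The 3 that fell came down to 1 without KO XY replicate 1 or 2 or WT XY replicate 1 or 3. Ecm1, a secreted glycoprotein of the basement membrane, lay at 12.27, 12.15 and 12.1 in KO XY and 9.16, 9.02 and 8.91 in WT XY, a gap far wider than the spread in either group (log2 difference 3.14 ± 0.16, adjusted p = 1.19e-08). Efemp1, a fibulin, rose by 2.48 ± 0.21 and Postn, the matricellular protein periostin, by 1.96 ± 0.16 (adjusted p = 2.39e-06 and 1.58e-06). Tnc, the gene of tenascin C, rose by 1.38 ± 0.19 and Vcan, that of the proteoglycan versican, by 1.23 ± 0.16 (adjusted p = 0.000178 and 0.000138).

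Of 37 collagen genes 12 rose and 4 fell, or 7 and 2 with the covariate, and the type IV chains of basement membranes went separate ways. Col4a5 lay at 11.16, 11.17 and 11.08 in KO XY and 9.75, 9.82 and 9.88 in WT XY (log2 difference 1.32 ± 0.14, adjusted p = 1.33e-05), with all KO XY arrays higher. Col4a1 lay at 10.36, 9.98 and 10.25 in KO XY and 11.24, 10.99 and 11.11 in WT XY (log2 difference -0.92 ± 0.12, adjusted p = 8.93e-05), with all of them lower. Each moved with the neighbour it shares a promoter region with, Col4a6 rising by 1.27 ± 0.14 and Col4a2 falling (-0.94 ± 0.16, adjusted p = 0.000821, with the covariate 0.12, difference -0.63). Of the type VI chains Col6a1 rose by 1.29 ± 0.13 and Col6a2 by 1.87 ± 0.2, and the fibrillar genes Col1a1 and Col3a1 by 2.09 ± 0.34 and 0.82 ± 0.12 (adjusted p = 1.41e-05, 1.55e-05, 0.00076 and 0.000192). Col1a1 was not called with the covariate (adjusted p = 0.122, difference 1.15).

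Of 45 matrix remodelling genes 14 rose and 3 fell, or 8 and 3 with the covariate. Tgm2, a transglutaminase that crosslinks matrix, rose by 2.66 ± 0.23 and Adamtsl4 by 2.66 ± 0.22 (adjusted p = 2.77e-06 and 2.01e-06). The protease gene Adamts16, which is expressed in the early gonad, fell by 2.38 ± 0.22, the transglutaminase Tgm3 fell by 1.69 ± 0.21 and the protease inhibitor Timp1 fell by 0.99 ± 0.12 (adjusted p = 4.01e-06, 7.87e-05 and 4.81e-05). The other probe sets of Adamts16 and Tgm3 differed by -0.15 and -0.36 and were not called.

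Genes of the desmosome were among the cell contact genes that fell. Of 44 keratin and junction genes 7 fell (15.9%) and 4 rose (9.09%), or 4 and 2 with the covariate. The list had 3 fallen without WT XY replicate 2. It had 2 risen without KO XX replicate 3, KO XY replicate 1 or 2 or WT XY replicate 1 or 3. Over all genes 6.75% fell and 6.56% rose. Pkp2, the desmosomal plaque protein plakophilin 2, lay at 8.7, 8.29 and 8.59 in KO XY and 11.57, 11.82 and 11.76 in WT XY, with no overlap (log2 difference -3.19 ± 0.28, adjusted p = 2.64e-06). The desmosomal cadherin gene Dsg2 fell by 1.69 ± 0.18 (adjusted p = 1.51e-05). The keratin gene Krt8 fell by 1.51 ± 0.17 and Krt19 rose by 2.41 ± 0.14 (adjusted p = 2.3e-05 and 4.38e-08). Of 46 cadherins and integrins 8 rose (17.4%) and 5 fell (10.9%), or 2 and 2 with the covariate. Itga6, a laminin receptor subunit, read 8.22, 8.22 and 8.54 in KO XY and 10.87, 10.92 and 10.94 in WT XY (log2 difference -2.58 ± 0.15, adjusted p = 6.05e-08). Cdh11, a cadherin of mesenchyme, rose by 1.04 ± 0.16 and Cdh9 fell by 1.68 ± 0.25 (adjusted p = 0.00034 and 0.00027).

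**Figure D3:**
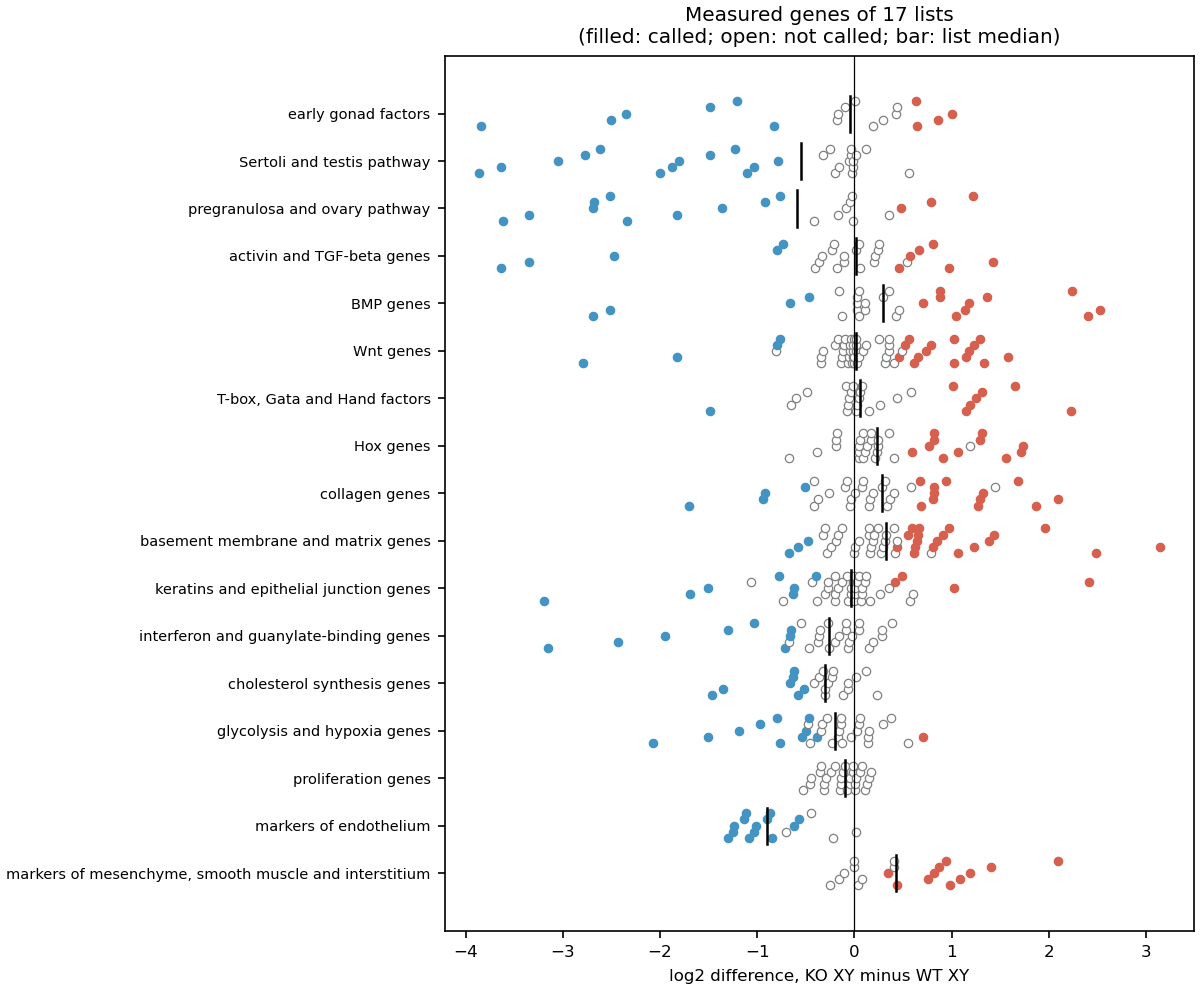
Log2 difference between KO XY and WT XY for every measured gene of 17 lists. Filled dots were called (red higher, blue lower), open dots were not, and black bars are list medians. The steroid, aldo-keto and EGF family lists, with Akr1cl, Aldh1a1 and Ereg, are not drawn. Every filled dot of the Sertoli and endothelial lists lies left of 0 and every filled dot of the Hox and mesenchymal lists right of it, and the proliferation genes lie in a narrow band with a median of -0.10.

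Genes named for nerve cells moved both ways among the largest changes. Of 47 synaptic and neuronal genes 13 rose and 6 fell, or 6 and 6 with the covariate, and 8 rose without KO XY replicate 3. Nrn1, the gene of the membrane-anchored protein neuritin, lay at 5.05, 5.32 and 4.94 in KO XY and 9.3, 9.09 and 8.88 in WT XY (log2 difference -3.99 ± 0.13, adjusted p = 4.13e-10). Lrrtm4, a synaptic adhesion protein, lay at 7.64, 7.83 and 7.66 in KO XY and 4.23, 4.77 and 4.26 in WT XY, the largest rise of all genes ranked (log2 difference 3.29 ± 0.24, adjusted p = 6.16e-07). The neurofilament genes Nefl and Nefm rose by 2.04 ± 0.2 and 2.65 ± 0.32 (adjusted p = 8.54e-06 and 5.86e-05). Of 11 measured markers of neural and neural crest cells none rose and 1, Gap43, fell (9.09%), also with the covariate. These shares are near the 6.56% higher and 6.75% lower over all genes. When KO XX replicate 2 was left out 2 fell. The mean level of these markers was 5.82 ± 0.06 in KO XY and 5.81 ± 0.07 in WT XY. Only 5 of the 11 had a mean of at least 6 in KO XY or WT XY. The part of neural cells in the changes above was not tested. Of 61 axon guidance genes 16 rose and 6 fell, or 7 and 3 with the covariate. The netrin receptor gene Unc5c rose by 1.26 ± 0.13 and the ephrin gene Efna5 by 1.05 ± 0.13, and the semaphorin receptor gene Plxnd1, used by endothelium, fell by 1.54 ± 0.19 (adjusted p = 9.95e-06, 7.75e-05 and 6.72e-05).

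Interferon-responsive genes and metabolic genes leaned towards lower values. Of 30 interferon and guanylate-binding genes 8 fell and none rose, or 5 and 0 with the covariate, with a median of -0.27. Gbp2b, a guanylate-binding GTPase, read 5.93, 5.17 and 5.64 in KO XY and 8.02, 9.04 and 9.12 in WT XY (log2 difference -3.15 ± 0.28, adjusted p = 3.47e-06), and its close paralogue Gbp2, whose probe set may share signal with it, dropped by 2.43 ± 0.24. Ifitm1 fell by 1.95 ± 0.14 and Bst2, the gene of tetherin, fell by 1.3 ± 0.24 (adjusted p = 4.66e-07 and 0.00184). Of 21 cholesterol synthesis genes 7 fell and none rose, or 2 and 0 with the covariate, with a median of -0.30. The isomerase gene Idi1 lay at 9.62 ± 0.06 in KO XY and 10.97 ± 0.07 in WT XY without overlap (log2 difference -1.35 ± 0.13, adjusted p = 4.69e-06), and the oxidase gene Msmo1 fell by 1.47 ± 0.26, not called with the covariate (adjusted p = 0.134, difference -1.03). Of 32 glycolysis and hypoxia genes 10 fell and 1 rose, or 6 and 0 with the covariate, and 2 rose when KO XX replicate 1 was left out. Hk1, a hexokinase, fell by 1.51 ± 0.2, Aldoc, an aldolase, fell by 0.97 ± 0.15 and Ldhb, a lactate dehydrogenase subunit, fell by 0.77 ± 0.1 (adjusted p = 0.000144, 0.000399 and 0.000135).

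Proliferation genes did not pass the test. None of 29 measured was called by limma at the threshold, with or without the covariate, and the list median was -0.10. At an unadjusted p under 0.05 there were 8, all lower, and 12 lay below WT XY without overlap against 2 above. Over all 18193 genes 3289 lay below without overlap and 3430 above. In a fit to the 6 XY arrays only, 4 proliferation genes were called lower, and with array weights 5. The smallest p was that of Ccnd1, the gene of cyclin D1 (log2 difference -0.53 ± 0.17, adjusted p = 0.0533), which passed under 6 of the alternatives, including a fit to the 6 XY arrays only (adjusted p = 0.00965) and without WT XX replicate 1 (adjusted p = 0.0102) or 2 (adjusted p = 0.0412). Of 22 cell cycle inhibitors and p53 targets 4 fell (18.2%) and 2 rose (9.09%), or 3 and 1 with the covariate. Over all genes 6.75% fell and 6.56% rose. In the list 1 rose when KO XY replicate 2 or 3 or WT XY replicate 1 was left out. Apart from Gadd45g, Cdkn1a, the gene of p21, fell by 1.33 ± 0.16 and Cdkn2c, that of the INK4 inhibitor p18, rose by 1.14 ± 0.12 (adjusted p = 6.96e-05 and 1.7e-05).

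Markers of other cells in the captured tissue moved with the genotype. In bulk samples such as these, fewer cells of a type and less RNA per cell cannot be told apart. Of 17 endothelial markers 13 fell and none rose, 5 of them with the covariate, where the list median was -1.05 against -0.90 without it. Their mean level was 7.09, 6.64 and 7.25 in KO XY and 7.92, 7.77 and 7.81 in WT XY. Of 20 markers of mesenchyme, smooth muscle and interstitium 11 rose and none fell, or 4 and 0 with the covariate, with medians of 0.43 without and 0.29 with it. Their mean level was 8.76, 8.72 and 8.85 in KO XY and 8.28, 8.18 and 8.18 in WT XY. Neither list overlapped between the groups (exact permutation p = 0.1 for both). Nr2f2, the nuclear receptor COUP-TFII of interstitial progenitors, rose by 1.4 ± 0.2, Tagln, the smooth muscle protein transgelin, by 0.94 ± 0.13 and Col3a1 as given above (adjusted p = 0.000258 and 0.000175). The matrix, Hox, T-box and Twist genes above moved in the same direction as these markers, and the part of cell content in those results was not tested.

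Macrophage markers were higher in KO XY, with a mean level of 7.06 ± 0.09 against 6.64 ± 0.12, without overlap (exact permutation p = 0.1). Of 14 measured 4 rose and none fell, and 1 rose with the covariate, without KO XY replicate 3 or without WT XY replicate 2, and 2 without any other single XY array. C1qb, a complement subunit, was the member with the smallest p (log2 difference 1.36 ± 0.26, adjusted p = 0.0026). Germ cell markers had mean levels of 7.91 ± 0.12 and 7.85 ± 0.15, which overlapped (exact permutation p = 0.6). Of 20 measured 2 rose (10%) and 1, Ifitm1, fell (5%), or 0 and 1 with the covariate, beside 6.56% and 6.75% over all genes. Of these markers 0 rose when KO XY replicate 1 or 2 or WT XY replicate 3 was left out and 1 when KO XX replicate 2, KO XY replicate 3 or WT XY replicate 1 or 2 was, and 2 fell when WT XX replicate 1 was. Mesonephric markers had a mean of 6.0 ± 0.04 against 6.21 ± 0.04 without overlap (exact permutation p = 0.1). Their median difference was 0.01, with 7 genes above 0 and 7 below, so the list as a whole did not shift. Of 14 measured 3 fell (21.4%) and 1 rose (7.14%), or 1 and 1 with the covariate, beside 6.75% and 6.56% over all genes. There 2 rose when KO XX replicate 2 or WT XX replicate 1 was left out. The largest difference was that of Calb1, the calcium-binding protein calbindin (log2 difference -3.45 ± 0.28, adjusted p = 1.58e-06). Coelomic epithelial markers had means of 8.64 ± 0.07 and 8.60 ± 0.04 (exact permutation p = 0.4). Of 14 measured 6 rose (42.9%) and 2 fell (14.3%), or 5 and 2 with the covariate, beside 6.56% and 6.75% over all genes. The 2 that fell were Aldh1a1 and Krt8, by 4.9 and 1.51, which lowered the mean. The similar means therefore do not show that the members were unchanged. Erythroid markers had means of 8.63 ± 0.37 and 9.04 ± 0.08 (exact permutation p = 0.3), with 2 of 11 lower, none of them with the covariate or without any single XY array other than KO XY replicate 3, 5 without that array, and 1 when KO XX replicate 2 or WT XX replicate 3 was left out.

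**Figure D4:**
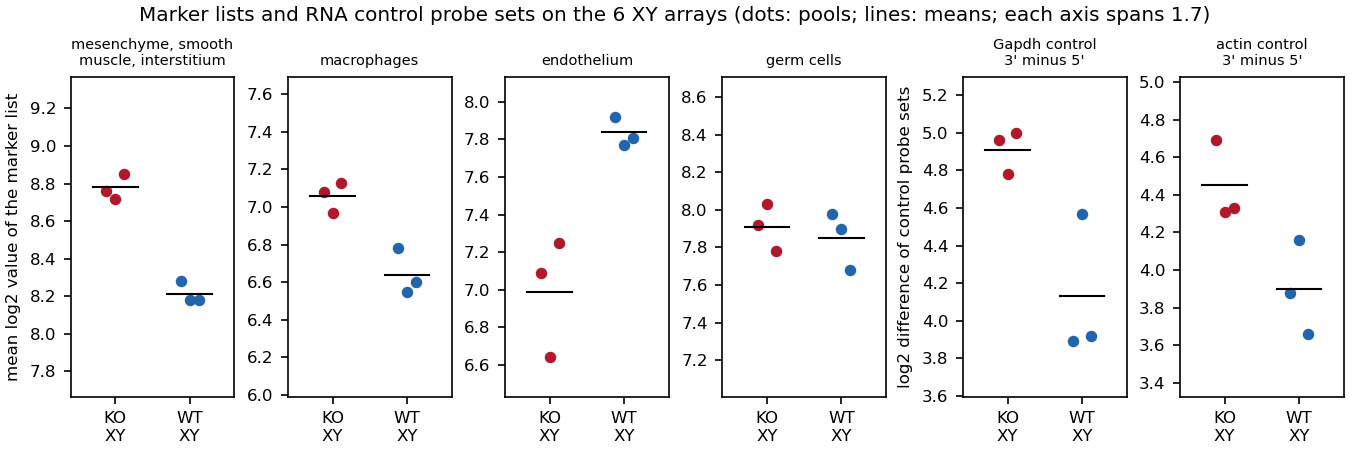
Mean log2 level of 4 marker lists and the 3' minus 5' log2 difference of the Gapdh and actin control probe sets on the 6 XY arrays. Dots are pools, lines are means (n = 3), and each axis spans 1.7 log2 units. Mesenchymal and macrophage markers and both control differences are higher in every KO XY array, endothelial markers are lower in every one, and germ cell markers overlap.

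Most of these changes were shared with XX gonads. In the XX comparison, which uses other arrays, 2493 genes were called (13.7%). Of the genes that rose in XY, 1179 had the same sign in XX and 833 were called the same way there. Of those that fell, 1179 had the same sign and 707 were called. Of the 30 largest rises and the 30 largest falls in XY, all were called the same way in XX, and with the Gapdh covariate 28 and 30 were called in XY. The test of the difference between the effects in XY and XX called 1 gene (0.0055%), and 1174 genes had an unadjusted p under 0.05 in it. Nr5a1 differed between the sexes in its response by -0.31 ± 0.23 (adjusted p = 0.786) and Gata4 by -0.08 ± 0.23 (adjusted p = 0.938), which does not show that the effects were equal.

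The gene called was Sox9. In XX gonads it read 6.09, 6.79 and 6.15 in KO XX and 6.32, 6.48 and 6.14 in WT XX, where the KO effect was 0.03 ± 0.18, so that the effect in XY exceeded that in XX by -2.8 ± 0.26 (adjusted p = 0.000576). The call was lost with the Gapdh covariate (difference -2.55, adjusted p = 0.0961) and held under the other settings tried (adjusted p = 0.000104 to 0.00344). Mmd2 and Cnga1 followed with differences of -2.21 ± 0.41 and -1.61 ± 0.31 (adjusted p = 0.391 and 0.436), and neither passed the test. WT XX replicate 1 correlated at 0.995 to 0.996 with the WT XY arrays and at 0.988 with each other WT XX array. It nonetheless read as XX for the Y-linked genes Eif2s3y (3.12) and Kdm5d (3.4). The other WT XX arrays read 3.34 and 3.42 for Eif2s3y and the WT XY arrays 9.36, 9.69 and 9.75. For Kdm5d these were 3.13 and 2.87 against 9.41, 9.51 and 9.59. Without WT XX replicate 1, 10 genes were called, led by Sox9 and Cbln4 (difference -2.04 ± 0.27, adjusted p = 0.019).

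**Figure D5:**
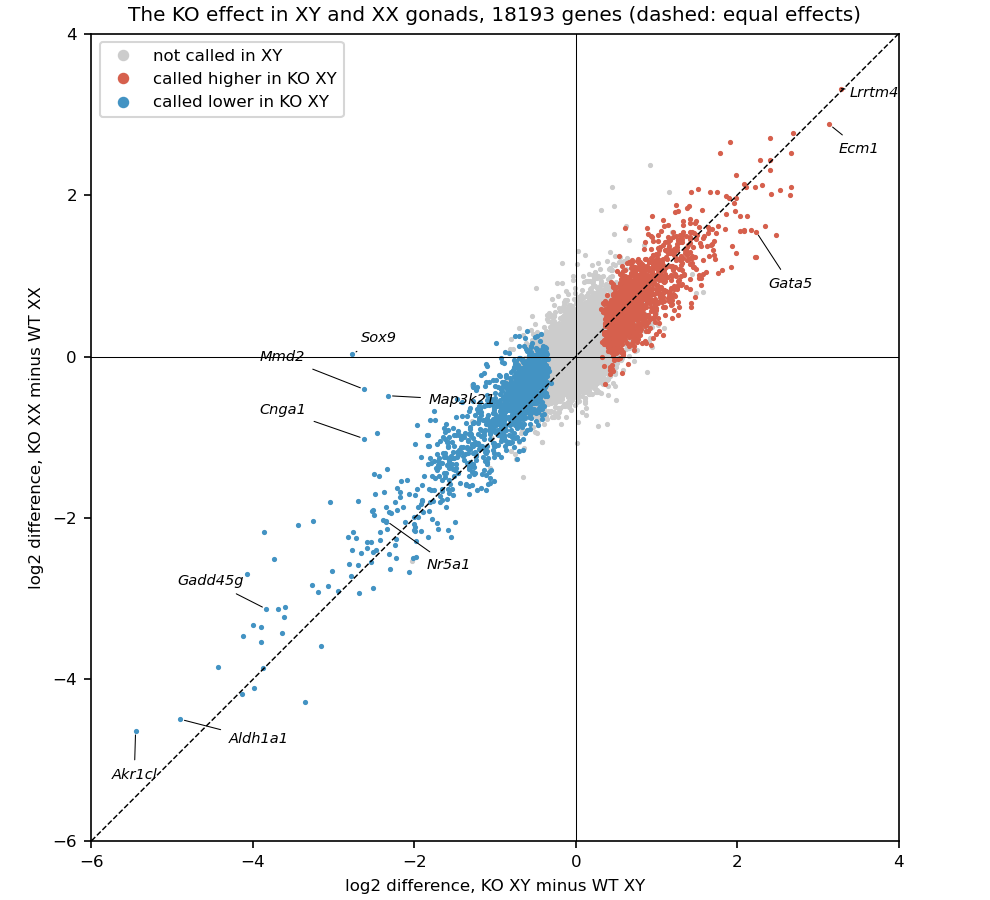
The KO effect in XY gonads (horizontal axis, log2) against that in XX gonads (vertical axis, log2) for 18193 genes, coloured by the call in XY. Most coloured points lie along the dashed line of equal effects, and Sox9 lies on the horizontal line at 0, lower in KO XY by 2.77 with an effect of 0.03 in XX.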

How the data were processed

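RNA of 12 pools (3 per group, 15 ng each) was amplified over 2 cycles and hybridised to Affymetrix mouse arrays. The deposited values are log2 values that the authors made by RMA, per the submitters' processing notes, which name Affymetrix Expression Console, RMA and affy without versions. RMA applies quantile normalization, so a shift common to all genes would not be seen. Of 45101 probe sets, 34945 had a single gene in the platform annotation, and each gene took the probe set with the highest mean over 12 arrays. The model was fitted in limma 3.58.1 under R 4.3.3 (4 group means, 8 residual degrees of freedom, two-sided, Benjamini-Hochberg adjustment over 18193 genes), after a test on simulated data. Marker means and control differences were compared by exact permutation tests in scipy 1.17.1. P-values rest on the spread between pools. Precision is limited by the number of arrays.

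The 34 gene lists, 8 marker lists and the members were chosen with earlier results of these data known. Named genes were Cbx2, all members of the early gonad, Sertoli and pregranulosa lists, up to 6 members of every other list by smallest p, the 30 largest called and non-overlapping changes each way, and the 15 largest called interaction effects each way. Genes outside this rule were chosen after their values were seen: the genes called between XY and XX in WT, Aldh1a2, Col4a2 and Dlk1. Same-numbered KO XY and WT XY arrays did not deviate together (r = -0.005, 0.033 and 0.035), so numbers were not used as pairs. Alternatives covered normalization, filters, probe sets, variance models, the Gapdh covariate, thresholds and leaving out each array.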

Additional observations from a re-analysis of the deposited data

Results flagged for a closer look

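The KO effect on Sox9 differed between XY and XX gonads by the test of that difference (-2.80 ± 0.26, adjusted p = 0.000576, limma). It was lower in KO than in WT in every XY array and overlapped between KO and WT in XX.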

How the results depend on the processing

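The main counts were 2421 genes called, 1193 higher and 1228 lower, and 1 gene in the test of XY against XX. They moved with array weights (4406, 2410, 1996 and 3), in a fit to the 6 XY arrays only (3802 called, 2013 higher), with the Gapdh covariate (780, 301, 479 and 0), at an adjusted p under 0.01 (1310, 586 and 724) and with a 2-fold minimum (680, 293 and 387). The probe set with the largest variance gave 2 genes in the test of XY against XX. Leaving out single arrays gave 1598 (without WT XY replicate 1) to 3397 (without WT XX replicate 1), with 729 to 1782 higher, 835 to 1615 lower, and 1 to 10 (without WT XX replicate 1) in the test of XY against XX. A replicate block gave 2565 called, 1253 higher and 1312 lower, although numbers did not pair the arrays. No gene named here changed direction while called under any setting tried. For some named genes no other probe set was called, among them Mmd2, Cdkn1a, Fosl2, C1qb, Edil3, Lrrtm4 and Ibsp. The cause of these shifts was not tested, apart from the fewer genes that stricter thresholds pass by construction. Dim genes such as Sox8 and Erbb4, near the lower end of the scale at 2.37, could not show a fall.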

Other observations

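Several of the largest changes belonged to none of the gene lists (values are log2 differences, KO minus WT in XY, ± SE, n = 3 arrays a group, or log2 levels per array). Among the 30 largest rises were Ptger4, the prostaglandin E2 receptor EP4 (2.41 ± 0.15), the potassium channel genes Kcnt2 (2.31 ± 0.27) and Kcnab1 (1.97 ± 0.14), Ibsp, the gene of bone sialoprotein (2.22 ± 0.28), and Edil3, an integrin-binding secreted protein (2.11 ± 0.23). Fras1, which anchors epithelium to the basement membrane beneath it, rose by 1.99 ± 0.16 and the calcium-binding protein gene S100a6 by 1.99 ± 0.26. Il33, a cytokine, read 9.76, 9.86 and 9.65 in KO XY and 7.38, 7.08 and 6.74 in WT XY, with no overlap. Among the 30 largest falls were Dmrta1, a DM-domain factor related to Dmrt1 (-3.73 ± 0.25), Pnliprp2, a lipase-related gene (-3.69 ± 0.21), the receptor gene Gpr37 (-3.26 ± 0.18) and Stc2, the gene of the secreted hormone stanniocalcin 2 (-3.07 ± 0.3). Dmrta1 read 3.17, 3.73 and 3.39 in KO XY and 7.22, 7.08 and 7.19 in WT XY, with no overlap, and the neuronal transmembrane gene Slitrk1 read 5.19, 5.16 and 5.73 in KO XY and 8.53, 8.37 and 8.25 in WT XY. All of these were called in limma in both XY and XX gonads, and remained called in XY with the Gapdh covariate.

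Of 27 imprinted genes 4 rose (14.8%) and 3 fell (11.1%), or 1 and 1 with the Gapdh covariate, with a median of 0.05. Over all genes 6.56% rose and 6.75% fell. The imprinted antisense RNA Airn rose by 1.03 ± 0.12 (adjusted p = 4.67e-05) and Igf2r, the gene it overlaps, by 0.7 ± 0.19 (adjusted p = 0.0254), and Igf2r was not called with the covariate (adjusted p = 0.361, difference 0.62). Meg3 and Dlk1, of another imprinted cluster, differed by 0.52 ± 0.12 and 0.8 ± 0.25 and were not called with the covariate either (differences 0.5 and 1.0, adjusted p = 0.2 and 0.178). With the covariate counted, Igf2r lost its call under 7 of the alternatives, Dlk1 (adjusted p = 0.044) under 9 and Meg3 under 2. The imprinted rises numbered 1 when KO XY replicate 1 was left out, and 2 when any single WT XY array was. The falls numbered 0 on leaving out either KO XY replicate 2 or the third WT XY array, and 1 on leaving out WT XY replicate 2. Airn was called in limma under each of the settings tried, with a difference of 0.50 where all probe sets of a gene were averaged, and none of its 4 other probe sets was called.

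Of 28 immediate early and heat shock genes 7 fell (25%) and 4 rose (14.3%), or 2 and 1 with the covariate, with a median of -0.12. Over all genes 6.75% fell and 6.56% rose. Egr1, an early response transcription factor, fell by 1.42 ± 0.23 and Hspa1b, a heat shock protein, fell by 0.97 ± 0.14, while Fosl2, of the AP-1 family, rose by 1.17 ± 0.17 (adjusted p = 0.000555, 0.000225 and 0.000231). Hspa1b lost its call with the probe set of largest variance (adjusted p = 0.322, difference -0.46), and none of its other probe sets was called.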
